A study of Mus musculus with 9 samples.

Results

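The genes described here are 9 chemokines and chemokine receptors that guide T cells into tissues, measured in mouse liver tumors after treatment with an anti-PD-1 antibody. They are the ligands Cxcl9, Cxcl10 and Cxcl11, the receptor Cxcr3, the ligand Cxcl16, the receptor Cxcr6, and the ligands Ccl5, Ccl3 and Ccl4. Members were found by symbol in the expression tables of 9 tumors, where 9 of 52163 listed symbols named one of them, and each member had 1 entry in every tumor. Tumors were grown from Hepa1-6, a mouse hepatoma cell line, as pieces implanted into the liver of C57BL/6 mice, which are described as male and 6 to 8 weeks old. Every mouse carried the same tumor line, and each tumor came from 1 mouse. The 3 PBS mice received the vehicle, and the other mice received anti-PD-1 (clone RMP1-14) at 5 mg per kg, in 5 injections 4 days apart from day 10 to day 26. Tumors were taken on day 27. The 3 nonresponsive tumors are the largest and the 3 responsive tumors the smallest of the antibody-treated mice, those in between having been left out, so that response is defined by tumor size and the antibody-treated groups cannot be told apart from groups of large and small tumors.

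Chemokines are small secreted proteins that draw cells along a gradient by binding receptors on their surface. CXCL9, CXCL10 and CXCL11 are induced by interferon-gamma in macrophages, dendritic cells and tumor cells and bind CXCR3, which effector T cells and NK cells carry. CXCL16 is made as a membrane protein, mainly by myeloid cells, can be shed by the protease ADAM10, and binds CXCR6 on T cells. CCL3 and CCL5 bind CCR1. CCL5 is made in large amounts by activated T cells and NK cells, and CCL3 and CCL4 by many activated leukocytes.

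The promoters of Cxcl9 and Cxcl10 are shown because both genes are textbook interferon-gamma targets and were lowest and highest in the same tumors. The 250 bases before the start of each gene are from RefSeq on GRCm38.p6, both on the minus strand and written 5′ to 3′ in the direction of the gene, at chr5:92328080-92328329 for Cxcl9 and chr5:92348890-92349139 for Cxcl10. Capitals mark matches to the searched motifs.
Cxcl9: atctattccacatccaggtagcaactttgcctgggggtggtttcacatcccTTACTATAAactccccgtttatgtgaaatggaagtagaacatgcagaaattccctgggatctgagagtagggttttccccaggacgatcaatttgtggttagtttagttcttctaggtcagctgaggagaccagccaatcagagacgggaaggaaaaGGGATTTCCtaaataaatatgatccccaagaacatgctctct
Cxcl10: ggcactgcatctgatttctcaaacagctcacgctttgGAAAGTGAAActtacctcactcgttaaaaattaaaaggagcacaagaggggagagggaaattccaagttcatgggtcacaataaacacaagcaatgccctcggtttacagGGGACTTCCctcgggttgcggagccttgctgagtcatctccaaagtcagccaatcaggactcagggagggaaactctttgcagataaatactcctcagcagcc
In Cxcl9 the capitals are TTACTATAA, 199 to 191 bases before the start, which has the form TTANNNTAA of the interferon-gamma-responsive element known from this gene, and GGGATTTCC, 42 to 34 bases before the start, which has the form GGGANTTCC of a kappaB site. In Cxcl10 they are GAAAGTGAAA, 213 to 204 bases before the start, the GAAA, 2 bases, GAAA core of an interferon-stimulated response element, and GGGACTTCC, 103 to 95 bases before the start. The matches do not overlap. Both strands were searched. Of 32851 RefSeq windows of the same length, 4.62% held TTANNNTAA, 1.43% held GGGANTTCC and 2.98% held this core. The windows of Cxcr3, Cxcr6 and Ccl3, the other members with a matched promoter, held none of these forms.

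Values are FPKM, the fragments assigned to a gene corrected for transcript length and for the mapped fragments of the library, as Cufflinks estimated them in each tumor. The number of fragments itself is unknown. From the steps between the lowest values, the depth of the tumors lay between 0.934 and 1.07 times that of PBS tumor 1. Cufflinks' own confidence limits for the members were 3.37% to 31.1% of the value to each side, widest for Cxcr6, Cxcl11 and Cxcr3. PBS tumor 1 stood apart: its log2 values correlated with those of the other tumors at r = 0.577 to 0.843, against 0.756 to 0.905 for the 28 pairs without it. Entries with no gene name took 19.2% to 81.5% of all FPKM in the PBS tumors and 70.4% to 73.2% in the nonresponsive tumors. In the responsive tumors they took 21.0% to 55.1%, below every nonresponsive tumor. Markers of hepatocytes, summed over 28 genes, ranged from 728 to 8627 FPKM in PBS tumors, from 5527 to 20222 FPKM in nonresponsive tumors and from 16915 to 32459 FPKM in responsive tumors, although surrounding tissue is stated to have been removed. The 5 hepatoma line markers, with 0 of 5 at 0 in all tumors, summed to 36.5 to 46.0 FPKM in PBS, 29.1 to 107 FPKM in nonresponsive and 10.7 to 68.4 FPKM in responsive tumors. In responsive against nonresponsive tumors 0 of the 4 tested were higher, and the fetal transcript H19 fell by 1.95 on the log2 scale (limma adjusted p = 0.886), and the growth factor Igf2 rose by 1.37 in nonresponsive against PBS tumors (limma adjusted p = 0.718). The fetal liver protein Afp was at 0.32 to 56.5 FPKM over the 9 tumors. Member values from a fit with the mean log2 level of the hepatocyte markers as a covariate stand beside several of the results, and the part of the hepatoma markers and of entries without a gene name was not tested.

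No member passed the test between any groups, and for all 9 the groups overlapped in every comparison. The test was limma on log2(FPKM + 1), fitted over all genes, and a call was an unadjusted p under 0.05. The p adjusted for all genes tested stands beside most of the main results. Some calls of members under another setting or without 1 tumor are given below without it. Between pairs of groups, no adjusted p of a member was below 0.202 there. Between responsive and nonresponsive tumors, 0 of 9 members were called, against 5.49% of 13832 genes, 0 had an adjusted p under 0.05, against 0.116%, and in 0 of 9 the groups did not overlap, against 10.5%. Between responsive and PBS tumors the corresponding counts were 0, 0 and 0 of 9, against 17.2%, 0.231% and 28% of 13841 genes. Between nonresponsive and PBS tumors they were again 0, 0 and 0 of 9, against 3.22%, 0.0798% and 8.21% of 13793 genes. In the test of the 3 groups together 0 of 9 were called and 0 had an adjusted p under 0.05, against 8.38% and 0.125% of 14457 genes. Unadjusted p-values of the members from limma ran from 0.167 to 0.692 for responsive against nonresponsive, from 0.0814 to 0.935 for responsive against PBS and from 0.0802 to 0.936 for nonresponsive against PBS. The smallest adjusted p of any member was 0.973, 0.313 and 0.718 in these comparisons. Exact permutation tests, two-sided, of 3 against 3 tumors cannot go below p = 0.1, and the members gave p = 0.2 to p = 1.

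**Figure D1:**
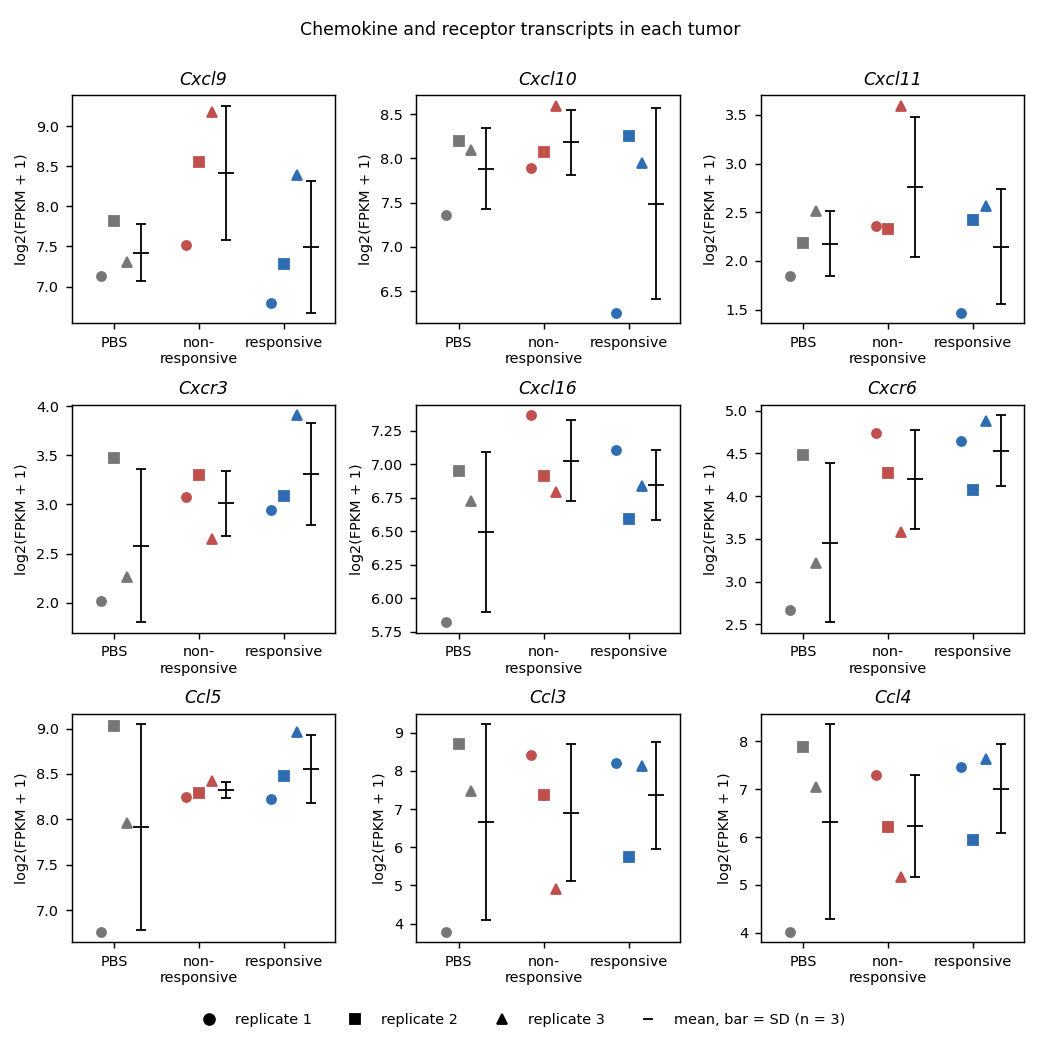
Each panel shows one gene on its own log2(FPKM + 1) axis for 3 PBS, 3 nonresponsive and 3 responsive tumors, with the mean and SD (n = 3) beside the points and the replicate number as the marker shape. In all 9 panels the points of every group overlap in range with those of the other groups, for example 140 to 225 FPKM in PBS and 182 to 577 FPKM in nonresponsive tumors for Cxcl9.

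The CXCR3 ligands Cxcl9 and Cxcl10 were among the most abundant members, at a mean of 251 and 249 FPKM over the 9 tumors, and Cxcl11 was near the low end at 4.56 FPKM. All 3 were lowest in responsive tumor 1 and highest in nonresponsive tumor 3. C57BL/6 mice, the hosts here, are known to carry a frameshift in Cxcl11 that leaves them without the protein. Its FPKM stand for the transcript only, and transcripts of host and tumor cells were not told apart.

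Cxcl9 was at 140, 225 and 158 FPKM in PBS tumors 1, 2 and 3, at 182, 376 and 577 FPKM in the nonresponsive tumors and at 110, 155 and 335 FPKM in the responsive tumors. Nonresponsive tumors 2 and 3 were higher than the other 7 tumors, and nonresponsive tumor 1 lay within the range of both other groups. Group means were 378 ± 197 FPKM in nonresponsive, 200 ± 119 in responsive and 174 ± 44.9 in PBS tumors (SD, n = 3 each). On the log2 scale responsive minus nonresponsive was -0.93 (SE 0.59, 95% confidence interval -2.37 to 0.52; limma adjusted p = 0.973), and nonresponsive minus PBS was 0.99 (SE 0.47, interval -0.17 to 2.15; limma adjusted p = 0.718). Leaving out 1 tumor at a time gave -1.38 without responsive tumor 3 to -0.55 without nonresponsive tumor 3 for the first difference, and 0.62 without nonresponsive tumor 3 to 1.44 without nonresponsive tumor 1, then called, for the second. With the replicate number as a block the first difference was called (-0.93, limma adjusted p = 0.665). Responsive and PBS tumors differed by 0.069 (interval -1.07 to 1.21), and this sign turned to -0.083 when tumors were scaled to equal sums over named genes. An exact permutation test over the 3 groups gave p = 0.236.

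Cxcl10 was at 163, 292 and 273 FPKM in the PBS tumors, at 236, 268 and 386 FPKM in the nonresponsive tumors and at 75.4, 305 and 246 FPKM in the responsive tumors. Responsive tumor 1 stood below all others, while responsive tumors 2 and 3 lay among the nonresponsive ones. In nonresponsive tumor 1 the entry also named the neighboring gene Scarb2, a lysosomal membrane protein. Responsive minus nonresponsive was -0.70 on the log2 scale (SE 0.57, interval -2.10 to 0.71; limma adjusted p = 0.973), and without responsive tumor 1 it was -0.082. The exact permutation test over the 3 groups gave p = 0.593.

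Cxcl11 was at 2.59, 3.53 and 4.69 FPKM in the PBS tumors, at 4.11, 4.02 and 11.1 FPKM in the nonresponsive tumors and at 1.76, 4.34 and 4.90 FPKM in the responsive tumors. Nonresponsive tumor 3 was the only tumor above 5 FPKM. The difference of responsive minus nonresponsive tumors was -0.61 on the log2 scale (SE 0.47, interval -1.78 to 0.55; limma adjusted p = 0.973), and it was -0.19 without nonresponsive tumor 3. The exact permutation test over the 3 groups gave p = 0.471.

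The ligands kept different proportions to each other. The ratio of Cxcl9 to Cxcl10 in FPKM ran from 0.508 in responsive tumor 2 to 1.49 in nonresponsive tumor 3 and was above 1 in 4 tumors, which were nonresponsive tumors 2 and 3 and responsive tumors 1 and 3. In the 3 PBS tumors it was 0.856, 0.771 and 0.578. The ratio of Cxcl10 to Cxcl11 ran from 34.8 to 82.7.

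Cxcr3, the receptor of these ligands, was at 3.04, 10.1 and 3.78 FPKM in the PBS tumors, at 7.43, 8.88 and 5.29 FPKM in the nonresponsive tumors and at 6.67, 7.46 and 14.0 FPKM in the responsive tumors. PBS tumors 1 and 3 were the lowest of all, but PBS tumor 2 was the second highest. Group means were 9.39 ± 4.04 FPKM in responsive, 7.20 ± 1.81 in nonresponsive and 5.64 ± 3.88 in PBS tumors (SD, n = 3 each). Responsive minus nonresponsive was 0.30 on the log2 scale (SE 0.33, interval -0.52 to 1.12; limma adjusted p = 0.973). Responsive minus PBS was 0.73 (SE 0.47, interval -0.45 to 1.90; limma adjusted p = 0.405), and without PBS tumor 2 it was 1.17 and was called. The exact permutation test over the 3 groups gave p = 0.364.

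The ratio of Cxcl9 to Cxcr3 ran from 16.5 in responsive tumor 1 to 109 in nonresponsive tumor 3. Cxcl9 and Cxcr3 across the 9 tumors had r = 0.356 (exact permutation p = 0.345, adjusted over 7 pairs 0.456) and rho = 0.433 (p = 0.250, adjusted 0.583). Without the tumors farthest from the median of Cxcl9, nonresponsive tumors 2 and 3, r was 0.728 (n = 7, exact permutation p = 0.0627). Cxcl10 and Cxcr3 had r = 0.152 (exact permutation p = 0.694, adjusted 0.694) and rho = 0.167 (p = 0.678, adjusted 0.791), and r was -0.416 without responsive tumor 1 and PBS tumor 1.

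Cxcl16 varied least among the members, 2.96-fold between its lowest and highest tumor, with an SD within groups of 0.41 on the log2 scale, near the median of all genes, 0.41. It was at 55.4, 122 and 105 FPKM in the PBS tumors, at 164, 119 and 110 FPKM in the nonresponsive tumors and at 137, 95.2 and 113 FPKM in the responsive tumors. PBS tumor 1 was the lowest of the 9, and the other 8 lay between 95.2 and 164 FPKM. On the log2 scale the responsive tumors were at -0.18 relative to the nonresponsive tumors (SE 0.26, interval -0.81 to 0.45; limma adjusted p = 0.974). Leaving out 1 tumor at a time gave -0.31 to -0.0087, the latter when nonresponsive tumor 1 was dropped, and with the hepatocyte covariate it was -0.62 and was called (limma adjusted p = 0.466). The exact permutation test over the 3 groups gave p = 0.382. The proteases that cleave chemokines, Adam10 and Adam17, which shed membrane proteins, and Dpp4, which trims CXCR3 ligands, gave 0 of 3 calls in each comparison. Adam10 was at 105, 91.1 and 64.7 FPKM in PBS, 31.4, 58.7 and 73.3 FPKM in nonresponsive and 29.3, 93.2 and 53.1 FPKM in responsive tumors.

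Cxcr6, the receptor of CXCL16, was at 5.35, 21.4 and 8.29 FPKM in the PBS tumors, at 25.8, 18.2 and 11.0 FPKM in the nonresponsive tumors and at 24.03, 15.8 and 28.5 FPKM in the responsive tumors. PBS tumors 1 and 3 were the lowest, and PBS tumor 2 lay within both antibody-treated groups. Group means were 22.8 ± 6.41 FPKM in responsive, 18.3 ± 7.37 in nonresponsive and 11.7 ± 8.52 in PBS tumors (SD, n = 3 each). Responsive minus PBS was 1.08 on the log2 scale, the largest difference of a member in the 3 comparisons (SE 0.51, interval -0.19 to 2.34; limma adjusted p = 0.313). It was 1.59 and was called without PBS tumor 2, and 0.68 without PBS tumor 1. With the hepatocyte covariate it was -0.042. Responsive minus nonresponsive was 0.34 (SE 0.37, interval -0.58 to 1.25; limma adjusted p = 0.973), or -0.21 with that covariate, and the exact permutation test over the 3 groups gave p = 0.211.

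Cxcl16 and Cxcr6 had the highest correlation of the 7 pairs examined, at r = 0.817 over 9 tumors (exact permutation p = 0.00479, adjusted over 7 pairs 0.0335) and rho = 0.783 (p = 0.0172, adjusted 0.109). Taken as deviations from the group means it was r = 0.835. No p is given for this, because such deviations cannot be exchanged freely between groups. Without PBS tumor 1 and nonresponsive tumor 1, the tumors farthest from the median of Cxcl16, r was 0.556 (n = 7, exact permutation p = 0.196), no longer past the threshold. The ratio of Cxcl16 to Cxcr6 ran from 3.98 in responsive tumor 3 to 12.6 in PBS tumor 3. Cxcr6 was 1.76 to 3.602 times as high as Cxcr3 in FPKM, highest in responsive tumor 1.

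**Figure D2:**
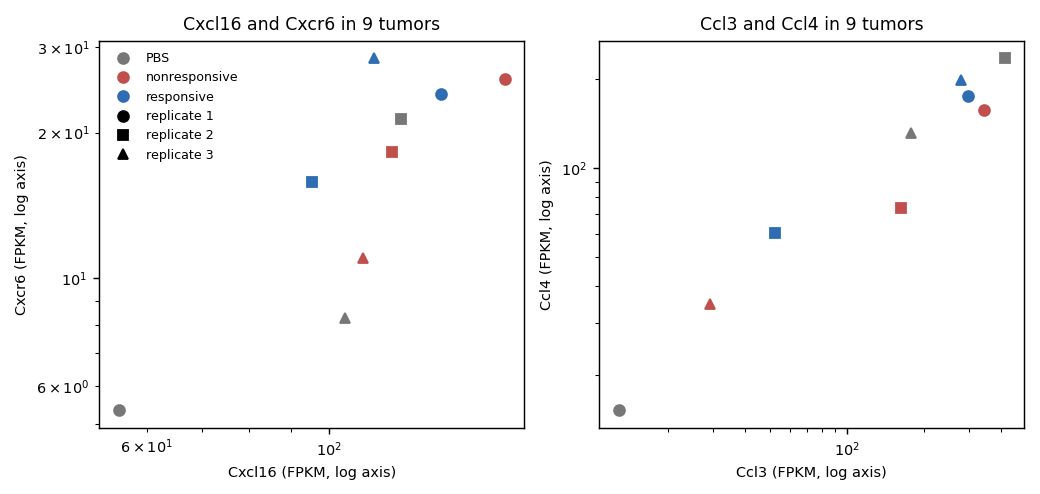
Each point is 1 of 9 tumors, colored by group and shaped by replicate number, with FPKM on logarithmic axes. On the left Cxcl16 is plotted against Cxcr6, with PBS tumor 1 at 55.4 and 5.35 FPKM far from the rest, and on the right Ccl3 is plotted against Ccl4, which rise together from 12.8 and 15.3 FPKM in PBS tumor 1 to 415 and 235 FPKM in PBS tumor 2.

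Ccl5 was the most abundant member, at a mean of 331 FPKM. It was at 108, 519 and 247 FPKM in the PBS tumors, at 304, 313 and 341 FPKM in the nonresponsive tumors and at 299, 356 and 496 FPKM in the responsive tumors. The PBS tumors held both the lowest and the highest value, and the nonresponsive tumors lay within 1.12-fold of each other. In 7 tumors, all but PBS tumor 3 and responsive tumor 2, its entry also named the neighboring gene Heatr9. Responsive minus nonresponsive was 0.23 on the log2 scale (SE 0.27, interval -0.43 to 0.90; limma adjusted p = 0.973), and responsive minus PBS was 0.64 (interval -0.85 to 2.13) with PBS tumor 1 and 0.066 without it. With the hepatocyte covariate these differences were -0.23 and -0.31. The exact permutation test over the 3 groups gave p = 0.6.

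Ccl3 varied most, 32.4-fold between its lowest and highest tumor, with a within-group SD of 1.98 on the log2 scale, above 95.8% of all genes. It was at 12.8, 415 and 178 FPKM in the PBS tumors, at 343, 163 and 29.2 FPKM in the nonresponsive tumors and at 296, 52.2 and 279 FPKM in the responsive tumors. Each group held 1 tumor far below the other members of its group, and group accounted for 3.13% of the sum of squares. The responsive minus nonresponsive difference was 0.46 (SE 1.10, interval -2.24 to 3.16; limma adjusted p = 0.983), so that differences of up to 2.24 in one direction and 3.16 in the other are within the interval. It turned to -0.53 without nonresponsive tumor 3 and to -1.56 with the hepatocyte covariate. Under this covariate responsive minus PBS was -3.46 and nonresponsive minus PBS -1.91, both called by the unadjusted p. Responsive and PBS tumors did not overlap in the covariate, which was lowest in PBS tumor 1, so the former difference is extrapolated. The exact permutation test over the 3 groups gave p = 0.871.

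Ccl4 was at 15.3, 235 and 132 FPKM in the PBS tumors, at 157, 73.3 and 34.9 FPKM in the nonresponsive tumors and at 176, 60.6 and 198 FPKM in the responsive tumors. The tumor with the lowest value in each group was the same as for Ccl3, and group accounted for 8.29% of the sum of squares. Responsive minus nonresponsive was 0.79 on the log2 scale (SE 0.69, interval -0.92 to 2.49; limma adjusted p = 0.973). It was 0.26 without nonresponsive tumor 3 and 1.33 without nonresponsive tumor 1, and it turned to -0.70 with the hepatocyte covariate. Under this covariate responsive minus PBS was -2.38 and nonresponsive minus PBS -1.68, both called by the unadjusted p, and the former is extrapolated as for Ccl3. Over the 3 groups the exact permutation test gave p = 0.782. The ratio of Ccl3 to Ccl4 ran from 0.838 in nonresponsive tumor 3 to 2.23 in nonresponsive tumor 2 and was under 1 in PBS tumor 1, nonresponsive tumor 3 and responsive tumor 2.

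PBS tumor 1, nonresponsive tumor 3 and responsive tumor 2, the lowest of their groups for Ccl3 and Ccl4, were also the lowest of their groups in the mean log2 value of 10 neutrophil markers, which was 3.01, 5.52 and 5.73 for the PBS tumors, 6.96, 5.93 and 4.41 for the nonresponsive tumors and 5.60, 4.08 and 6.08 for the responsive ones. The mean of 10 macrophage markers was 4.84, 5.89 and 5.69 for the PBS tumors, 6.75, 6.94 and 5.79 for the nonresponsive tumors and 6.42, 5.44 and 6.04 for the responsive ones, with the lowest tumor of each group again the same. The complement subunits C1qb and C1qc share 1 entry and so 1 value in nonresponsive tumors 1 and 2, and without both genes the lowest tumors were still these, at 4.21, 5.15 and 4.76. The summed neutrophil level was 203 to 2570 FPKM in PBS, 593 to 5382 FPKM in nonresponsive and 475 to 3475 FPKM in responsive tumors, with 0 of 10 genes at 0 in all tumors and 0 of 10 called in each comparison. The neutrophil-attracting chemokine Cxcl2 was at 7.24, 560 and 614 FPKM in PBS, 1130, 274 and 12.4 FPKM in nonresponsive and 594, 42.7 and 547 FPKM in responsive tumors, and in PBS tumor 3 and nonresponsive tumor 1 its value was that of an entry shared with Cxcl3, as in nonresponsive tumor 2 with Cxcl1. In bulk tumors fewer cells of a type and less RNA per cell cannot be told apart, and the part of these cells in the values of Ccl3 and Ccl4 was not tested.

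**Figure D3:**
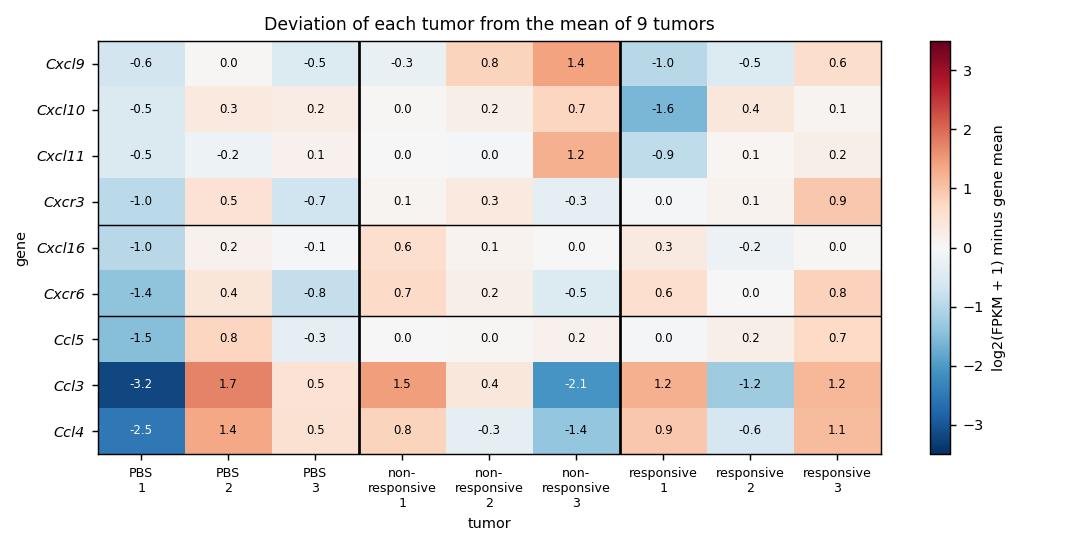
Color and printed numbers give the log2(FPKM + 1) value of each gene in each tumor minus the mean of that gene over the 9 tumors, with genes in rows grouped by family and tumors in columns grouped by treatment and response. PBS tumor 1 is below the mean for all 9 genes, down to -3.2 for Ccl3, nonresponsive tumor 3 is high for the CXCR3 ligands and low for Ccl3 and Ccl4, and responsive tumor 1 has the reverse.

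The lowest and highest values of the members gathered in a few tumors. PBS tumor 1 was the lowest for 6 of 9 members, Cxcr3, Cxcl16, Cxcr6, Ccl5, Ccl3 and Ccl4, and PBS tumor 2 was the highest for Ccl5, Ccl3 and Ccl4. Responsive tumor 3 was the highest for both receptors. Group accounted for 3.13% to 39.9% of a member's sum of squares, most for Cxcr6, with 38.2% for Cxcl9. With 3 tumors a group, part of such a share arises without any difference between groups. In the comparison of responsive with nonresponsive tumors, 5 members were higher and 4 lower, the median difference being 0.23 against -0.066 over all genes. In responsive against PBS tumors 7 were higher, with a median of 0.64 against -0.11, and in nonresponsive against PBS tumors 8 were higher, with a median of 0.43 against -0.057. The comparisons with PBS share the same 3 control tumors. Without PBS tumor 1, responsive minus PBS was -0.73 for Ccl3 and -0.45 for Ccl4, and nonresponsive minus PBS was -1.19 for Ccl3, -1.24 for Ccl4 and -0.17 for Ccl5.

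**Figure D4:**
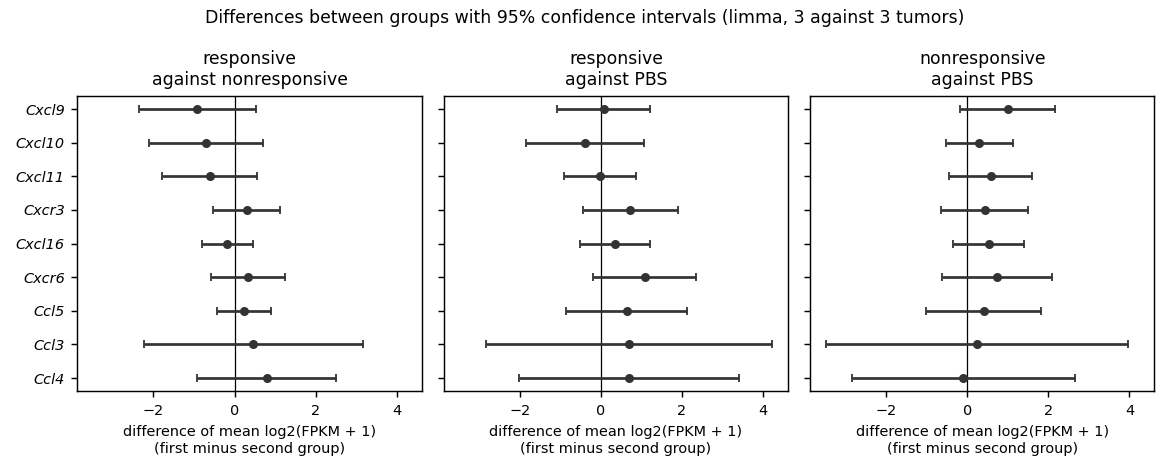
Points are differences of mean log2(FPKM + 1) between groups, first minus second, and bars are 95% confidence intervals from limma on 3 against 3 tumors, with 1 panel for each comparison. Every interval includes 0, and those of Ccl3 are the widest, from -2.24 to 3.16 in responsive against nonresponsive tumors.

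The cells that carry the receptors were followed with marker lists. All 15 T cell markers had a higher mean in the responsive group than in the nonresponsive group, which held for 13 of 15 when tumors were scaled to equal sums over named genes. By the unadjusted p 5 of them rose, with 5.49% of all genes called. These were Cd3d and Cd2, part of the T cell surface complexes, the kinases Zap70 and Lck, and Cd5. Cd3d was at 8.88, 8.71 and 8.44 FPKM in nonresponsive and 12.8, 15.2 and 14.4 FPKM in responsive tumors, a difference of 0.64 on the log2 scale (SE 0.17; limma adjusted p = 0.886). No marker had an adjusted p under 0.05. The summed level of the list was 105 to 298 FPKM in PBS, 184 to 217 FPKM in nonresponsive and 238 to 309 FPKM in responsive tumors, with 0 of 15 genes at 0 in all tumors. Responsive against PBS tumors gave 1 of 15 calls, Lat, with 17.2% of all genes called. Nonresponsive against PBS tumors gave 0 of 15, with 3.22% of all genes called. Of 7 NK cell markers tested, Klrb1c fell by 1.61 on the log2 scale in responsive against nonresponsive tumors (limma adjusted p = 0.842), and 0 rose. In the same comparison 1 of 8 dendritic cell markers rose, Flt3, a growth factor receptor, by 0.83, and 0 of 8 endothelial and 0 of 7 fibroblast markers were called.

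Set against the mean log2 value of the T cell markers in the same tumor, responsive minus nonresponsive was -0.17 for Cxcr3 (exact permutation p = 0.5), -0.13 for Cxcr6 (exact permutation p = 0.7) and -0.24 for Ccl5 (exact permutation p = 0.3). All 3 signs turned when Cd3e alone was the reference, to 0.15, 0.18 and 0.079. Set against the mean of 10 macrophage markers, the same difference was 1.31 for Ccl4 (exact permutation p = 0.2), 0.98 for Ccl3 (p = 0.4), 0.35 for Cxcl16 (p = 0.4), -0.40 for Cxcl9 (p = 0.8) and -0.17 for Cxcl10 (p = 1). Over the 3 comparisons the groups did not overlap in 0 of 24 such differences. Of the macrophage markers 0 of 10 were called in responsive against nonresponsive tumors, where 1 was higher. C1qb and C1qc rose in nonresponsive against PBS tumors, with 3.22% of all genes called, and their shared entry limits both calls. The summed macrophage level, with a shared entry counted once, was 704 to 1335 FPKM in PBS, 1336 to 1994 FPKM in nonresponsive and 1184 to 1907 FPKM in responsive tumors.

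No gene of the pathway upstream of the CXCR3 ligands was called between responsive and nonresponsive tumors. Ifng, the cytokine that induces them, was at 1.44, 7.56 and 3.39 FPKM in PBS, 4.62, 5.503 and 6.43 FPKM in nonresponsive and 1.80, 6.10 and 6.31 FPKM in responsive tumors, from an entry that also named Gm49751 in all 9 tumors. It was lowest in PBS tumor 1 and responsive tumor 1, and its groups overlapped. Cxcl9 and Ifng had r = 0.680 over 9 tumors (exact permutation p = 0.0440, adjusted over 7 pairs 0.154) and rho = 0.733 (p = 0.0311, adjusted 0.109), and without nonresponsive tumors 2 and 3 r was 0.746 (n = 7, exact permutation p = 0.0490). Of 17 genes of interferon-gamma and TNF signaling tested, 0 rose and 0 fell in responsive against nonresponsive tumors, and 3 were higher, with a median of -0.26 against -0.066 over all genes. In responsive against PBS tumors 11 of 16 were higher, or 4 of 16 with equal sums over named genes. There 0 rose and 1 fell, with 17.2% of all genes called. It was the kinase Jak2, which fell by 0.69 on the log2 scale (limma adjusted p = 0.281). In nonresponsive against PBS tumors 0 of 15 were called.

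Genes that interferon-gamma induces, such as the guanylate-binding proteins and the immunoproteasome, gave 0 of 14 calls in each comparison. Between responsive and nonresponsive tumors 2 of 14 were higher, with a median of -0.35 against -0.066 over all genes. These were Tap1, the peptide transporter subunit, and Psmb8, an immunoproteasome subunit, which had 1 shared entry and so the same value in responsive tumors 2 and 3, at 585 and 474 FPKM, and Psmb8 was listed at 0 in PBS tumor 2. Gbp2, a guanylate-binding protein, was at 129, 330 and 255 FPKM in PBS, 374, 291 and 348 FPKM in nonresponsive and 86.9, 305 and 237 FPKM in responsive tumors, again lowest in responsive tumor 1. The mean log2 value of the list was 5.33 in responsive tumor 1 and 7.17 and 6.86 in responsive tumors 2 and 3, against 6.72 to 7.06 in the nonresponsive tumors. Without the 6 genes that shared a value with another listed gene in some tumor, it was 4.76, 6.46 and 6.20 in the responsive and 5.92, 6.32 and 6.49 in the nonresponsive tumors.

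Ccr1, a receptor of CCL3 and CCL5, was at 14.5, 64.8 and 71.9 FPKM in PBS, 132, 82.1 and 33.8 FPKM in nonresponsive and 59.2, 13.4 and 50.6 FPKM in responsive tumors, lowest in each group in the tumor that was lowest for Ccl3. Ccr3, an eosinophil receptor that also binds CCL5, did not exceed 2.43 FPKM.

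Among the other chemokines and receptors, a few genes passed the unadjusted threshold and none had an adjusted p under 0.05. Of 26 other ligands tested in responsive against nonresponsive tumors 2 rose and 0 fell, with 5.49% of all genes called. Ccl19, which draws naive T cells and dendritic cells through CCR7, was at 50.6, 34.3 and 35.0 FPKM in nonresponsive and 155, 81.0 and 174 FPKM in responsive tumors, 1.70 higher on the log2 scale (SE 0.35; limma adjusted p = 0.791), with 4.92, 109 and 56.4 FPKM in PBS tumors. Ccl20, the ligand of CCR6, was 1.52 higher (SE 0.37; limma adjusted p = 0.886) but did not exceed 7.37 FPKM. Of 15 other receptors 1 rose, Ccr6, which B cells carry and whose groups overlapped, by 1.14 (limma adjusted p = 0.886). The 6 B cell markers all rose in the same comparison, by a median of 1.68 (limma adjusted p = 0.886 for each), and the groups overlapped for Cd79b. Cd79a, with a difference of 3.41, was listed at 0 in nonresponsive tumor 1. The summed B cell level was 4.25 to 74.4 FPKM in PBS, 26.4 to 39.2 FPKM in nonresponsive and 66.7 to 225 FPKM in responsive tumors.

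In responsive against PBS tumors 2 of 26 other ligands rose and 3 fell, with 17.2% of all genes called. Ccl21a, a second CCR7 ligand, rose by 1.08 (limma adjusted p = 0.281) and Ccl20 by 1.59, while Cxcl14 fell by 1.15 (limma adjusted p = 0.281), Ccl17 by 1.48 and Ccl24 by 2.58. Of 16 receptors 2 rose, Ccr6 and Ackr1, an atypical receptor that binds chemokines without signaling and whose entry also named Cadm3 in all 9 tumors. In nonresponsive against PBS tumors Ccl8 rose by 1.09 and Ccl22, a ligand of CCR4, fell by 0.61, of 27 ligands tested, and Ackr1 rose by 1.40, of 16 receptors, with 3.22% of all genes called. The 23 of 28 hepatocyte markers that rose in responsive against PBS tumors, and the 11 of 28 in responsive against nonresponsive tumors, moved with these comparisons, and the hepatocyte covariate was applied to the members as given beside them.

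The genes whose log2 values followed a member most closely over the 9 tumors were taken from 10401 symbols with a mean of at least 5 FPKM. This is a description over tumors that differ in cell makeup, which was not adjusted for. For Cxcr3 they were Gimap4, a lymphocyte GTPase (r = 0.966), the T cell adaptor Skap1 (r = 0.954) and Tnfsf10, which encodes TRAIL (r = 0.952). For Cxcl16 they were the cytokine receptor subunits Crlf2 (r = 0.9753) and Il10ra (r = 0.972) and the leukocyte gene Cyth4 (r = 0.965). For Cxcl9 they were the immunoglobulin segment Ighv1-43 (r = 0.938), which has near-identical relatives, the mRNA export factor Gle1 (r = 0.925) and the glucokinase Adpgk (r = 0.906).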

How the data were processed

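Total RNA of 9 tumors was sequenced from TruSeq libraries. The submitters' processing notes name Bowtie2 2.2.4, TopHat2 2.1.1 and the build mm8, but positions in the tables were not checked against mm8, and 0 of 8 members compared overlapped their GRCm38 position, so none is printed. The authors deposited FPKM per gene and tumor from Cufflinks, assembled in each tumor separately. The Cuffdiff table of fold changes and p-values was not used. FPKM of entries naming a symbol were summed, and 13 symbols with failed estimates were left out, as was Irf8, which is not analysed here. The members and lists were chosen with earlier results of these data known. Symbols reaching an FPKM of 1 in 3 or more tumors were tested on log2(FPKM + 1), a scale that understates changes of low genes, with limma 3.58.1 in R 4.3.3 (eBayes with trend), symbols with identical values being counted once, and adjusted by Benjamini-Hochberg over all symbols. Exact permutation tests were two-sided and used scipy 1.17.1. The fit was tested on simulated data. From lists other than the members, some of the genes called with groups that do not overlap and some of those highest in FPKM are named, and Ccr6 and Ccl17 were named after their values were seen. List levels that count a shared entry once or leave out genes sharing one were also added after the data were seen. Nothing in the labels pairs equally numbered tumors, and no tumors were duplicates. Correlations were adjusted over 7 pairs, some of which are not reported here.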

Additional observations from a re-analysis of the deposited data

How the results depend on the processing

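No member reached an adjusted p under 0.05 in limma between any pair of groups under any setting run, the smallest being 0.202. Of 466 results recomputed under other settings 435 kept direction and side of the threshold, and of 495 recomputed without 1 tumor 442 did. Deviations from group means correlated at -0.395 to 0.475 between equally numbered tumors and at -0.4675 to 0.4611 between unequally numbered tumors of different groups. With the number as a replicate block 1 member was called between responsive and nonresponsive tumors, Cxcl9 (-0.93, limma adjusted p = 0.665), and calls over all genes went from 759 to 934, from 2387 to 948 in responsive against PBS, from 444 to 237 in nonresponsive against PBS and from 1211 to 704 over the 3 groups. With 9 tumors in 1 fit and the hepatocyte mean as covariate, calls were 1, 3 and 2 of 9 members. Calls over all genes were 1310 of 13832 in responsive against nonresponsive, 653 of 13841 in responsive against PBS and 302 of 13793 in nonresponsive against PBS tumors. Against PBS the members called were Cxcl16 (-0.57), Ccl3 (-3.46) and Ccl4 (-2.38) in responsive and Ccl3 (-1.91) and Ccl4 (-1.68) in nonresponsive tumors. There Cxcl16 was called in responsive against nonresponsive tumors (-0.62, limma adjusted p = 0.466), and Ccl5 (-0.23), Cxcr6 (-0.21), Ccl3 (-1.56) and Ccl4 (-0.70) turned sign. Against PBS, responsive values turned for Cxcl11 (0.16), Ccl5 (-0.31), Cxcl16, Cxcr6 (-0.042), Ccl3 and Ccl4, and nonresponsive values for Ccl5 (-0.084) and Ccl3. The cause was not tested. The covariate was lowest in PBS tumor 1 and its groups differ. Equal sums over named entries, also without hepatocyte markers, turned Cxcl9 in responsive against PBS tumors (-0.083 and -0.049). They moved the median of all genes by -0.17 and -0.16 in responsive against nonresponsive and by -0.13 and -0.10 in responsive against PBS tumors. The share of calls that were higher went from 73.8% to 34.6% and 37.2%, from 49.2% to 29.5% and 32.6%, and from 46.8% to 58.8% and 60.1% in nonresponsive against PBS tumors. No listed gene called in the main test turned its direction under these scalings or the upper quartile.

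Relative to markers, 2 of 24 differences did not overlap with Cd3e and Adgre1 as references, and 1 with a pseudocount of 0.1. Cd3e turned Cxcr3 (0.15), Cxcr6 (0.18) and Ccl5 (0.079) in responsive against nonresponsive tumors and Ccl5 (0.28) against PBS. Without the 2 farthest tumors 0 of 7 pairs had an adjusted p under 0.05, and Cxcl10 with Cxcr3 (-0.416) turned. As deviations from group means r was 0.650 for Cxcl9 with Ifng, again without a p.

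Without 1 tumor, members called ranged from 0 to 2 in both comparisons with PBS and from 0 to 3 over the 3 groups, and 0 to 5 marker-relative differences did not overlap. Groups fail to overlap more readily with 2 against 3 tumors than with 3 against 3. Calls over all genes ranged from 1005 to 3875 in responsive against PBS and from 216 to 1859 in nonresponsive against PBS tumors. Without PBS tumor 2 they were 2276 and 408, and without nonresponsive tumor 1 the latter comparison had 250. Calls gained were Cxcr3 and Cxcr6 in both comparisons with PBS without PBS tumor 2 (1.17 and 1.59 for responsive, 0.87 and 1.26 for nonresponsive tumors), and Cxcl9 in nonresponsive against PBS tumors without nonresponsive tumor 1 (1.44). Over the 3 groups they were Cxcr3, Cxcr6 and Ccl5 without PBS tumor 2 and Cxcl9 without nonresponsive tumor 1. Ranges that cross 0 were, in responsive against nonresponsive tumors, -0.00039 to 0.48 for Cxcr3 and -0.53 to 1.27 for Ccl3. In responsive against PBS tumors they were -0.38 to 0.42 for Cxcl9, -0.78 to 0.22 for Cxcl10, -0.24 to 0.31 for Cxcl11, -0.73 to 1.72 for Ccl3 and -0.45 to 1.48 for Ccl4. In nonresponsive against PBS tumors they were -0.17 to 0.96 for Ccl5, -1.19 to 1.27 for Ccl3 and -1.24 to 0.69 for Ccl4. Relative to markers they were, in responsive against nonresponsive tumors, -0.38 to 0.11 for Cxcr6, -0.98 to 0.33 for Cxcl9 and -0.82 to 0.67 for Cxcl10. In responsive against PBS they were -0.16 to 0.16 for Cxcr3, -0.23 to 0.082 for Ccl5, -0.84 to 0.15 for Cxcl9, -0.91 to 1.02 for Ccl3 and -0.63 to 0.78 for Ccl4. In nonresponsive against PBS they were -0.76 to 0.55 for Cxcl9 and -1.89 to 0.039 for Ccl3.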
